A study of Schmidtea mediterranea with 6 samples.

Results

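The cell cycle genes described here are 39 contigs of the dd_Smed_v6 transcriptome, a set of assembled planarian transcripts, that the study listed as cell cycle genes. Members were taken from that list by contig number, and all 39 are among the 28742 contigs of the count table. RNA was sequenced from tails of asexual *Schmidtea mediterranea* of the CIW4 strain, removed from the animals just before extraction at 13 days of RNAi. The treated animals had received dsRNA of *hmcn-1*, the planarian gene of hemicentin, a secreted protein of the extracellular matrix. The control animals had received dsRNA of *unc-22*, a *C. elegans* sequence that the planarian genome lacks. Both conditions received 4 feedings in liver, and each was represented by 3 libraries of poly(A) RNA from 5 pooled tails. The dsRNA acts in the whole animal, and whole tails were used, in which neoblasts were neither sorted nor enriched.

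Neoblasts are the only dividing somatic cells of planarians and give rise to all differentiated tissues. Genes of DNA replication and of mitosis are therefore widely used as transcript markers of these cells. During S phase, a dividing cell loads and fires replicative helicases, makes deoxynucleotides and packs new DNA into chromatin, and during G2 and M phase it condenses, aligns and separates its chromosomes. The names of the members are those of human genes, as the study lists them, and their roles are known from human and yeast cells. Whether each contig is the closest planarian counterpart of its human gene was not checked. By these roles, 26 members belong to S phase (14 of DNA replication, 3 of nucleotide supply, 5 of repair and 4 of histones and chromatin) and 13 to G2 and M phase.

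Library totals ranged from 6374450 to 11887127 reads, and no library was a copy of another, since the 15 pairs differed by a chi-square per degree of freedom of 2.07 to 7.98. Control replicate 1 stood apart, differing more from the other 2 control libraries (7.98 and 6.46) than from those of *hmcn-1(RNAi)* animals (5.57 to 5.85). The targeted contig *hmcn-1* lay at 205, 206, and 204 CPM (CPM being the read count as a share of the library total, with totals scaled by TMM) in the control libraries and at 18.5, 18.5, and 16.7 CPM in the *hmcn-1(RNAi)* libraries, so that the labels held. The posterior genes *wnt11-1*, *wnt11-2*, *wntP-2*, and *fz4-1*, which mark planarian tails, lay at 6.93 CPM or more in every library, and *wnt1* between 0.12 and 0.51 CPM. The anterior genes *notum*, *sFRP-1*, *wnt2*, *ndl-4*, *prep*, and *ndk* lay between 0.711 and 43.3 CPM, with *prep* the highest. These levels alone do not show the body region. Conditions were compared with edgeR's quasi-likelihood test over 15333 contigs with enough reads. A contig counts as called where the Benjamini-Hochberg adjusted p, over all of these, was under 0.05. Adjusted p-values are from this edgeR fit unless another tool is named.

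Levels of the cell cycle genes were close in *hmcn-1(RNAi)* and control tails. Of the 39 members, 38 passed the filter on low counts, 21 with a positive and 17 with a negative log2 fold change, and values ran from -0.33 to 0.27. The median was 0.01, with quartiles at -0.13 and 0.07, beside a median of 0.0001 and quartiles at -0.09 and 0.10 over all contigs tested. Without control replicate 1 the median of the members was also 0.01. A single member, MKI67, was called, or 2.63% of those tested, where 1.13% of all contigs were. It was higher in *hmcn-1(RNAi)* tails, a direction in which 0.515% of all contigs were called. No member was called lower, where 0.613% of all contigs were. At an unadjusted p under 0.05 there were 3 members (MKI67, SMC4, and TYMS), 7.89% of those tested, against 11.0% of all contigs. The 1 higher member (MKI67) compares with 5.50% of all contigs and the 2 lower members (SMC4 and TYMS) with 5.52%. Within 1.2-fold of the control lay 34 members, and 85.4% of all contigs. In a whole tail, fewer dividing cells and less RNA per cell cannot be told apart.

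**Figure D1:**
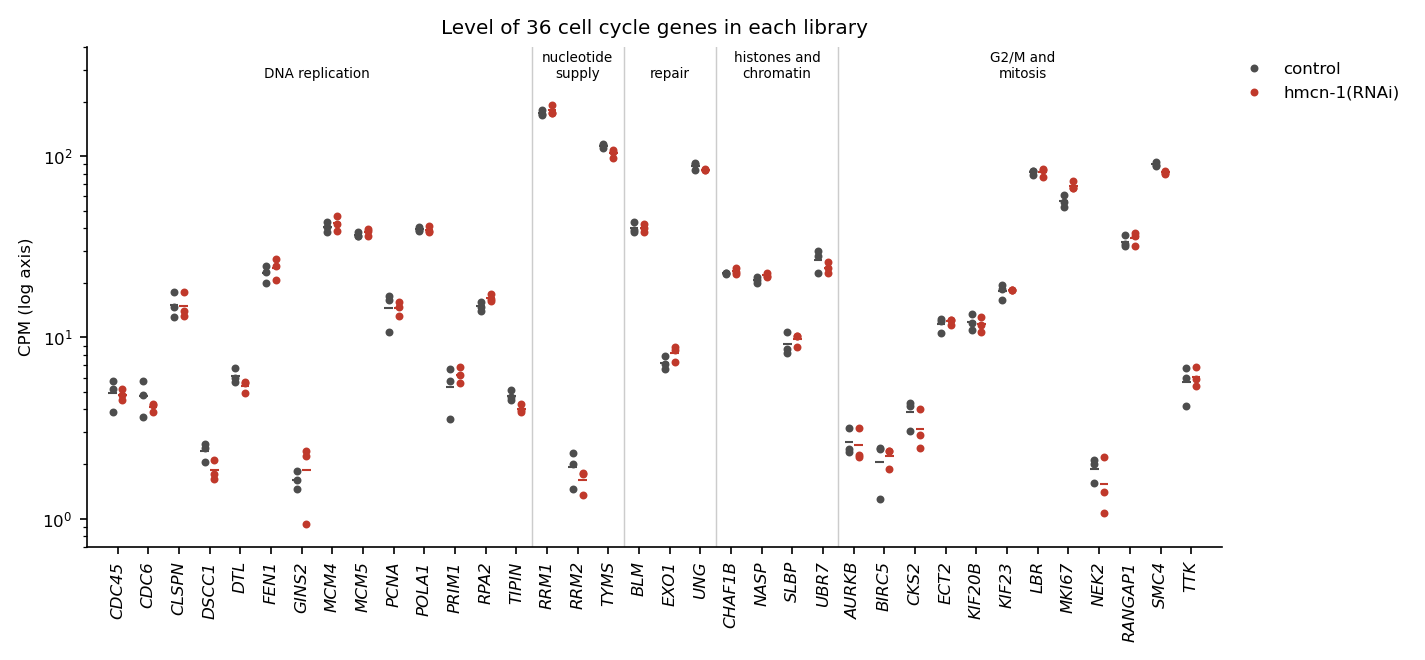
Level of 36 tested cell cycle genes, in CPM on a log axis, with a point for each of the 3 control (grey) and 3 *hmcn-1(RNAi)* (red) libraries and a short line at each mean. The points of both conditions interleave for most genes, and for MKI67 the red points, at 66.6 to 73.0 CPM, lie above the grey ones, at 52.7 to 61.1 CPM.

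The summed levels also overlapped between conditions. All 39 contigs together held 1048, 1082, and 1065 CPM in the control libraries and 1064, 1041, and 1093 CPM in the *hmcn-1(RNAi)* libraries, so the conditions overlapped and the *hmcn-1(RNAi)* mean was 100.1% of the control mean. The S phase members summed to a control mean of 745 ± 17.1 CPM (SD, n = 3) and an *hmcn-1(RNAi)* mean of 741 ± 22.9 CPM (SD, n = 3). The G2 and M phase members summed to 319.8 ± 0.394 CPM (SD, n = 3) and 325 ± 6.95 CPM (SD, n = 3). The ratio of the S phase sum to the G2 and M phase sum was 2.27, 2.38, and 2.34 in control libraries and 2.22, 2.28, and 2.35 in *hmcn-1(RNAi)* libraries, with overlapping ranges. These sums weigh abundant contigs most.

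**Figure D2:**
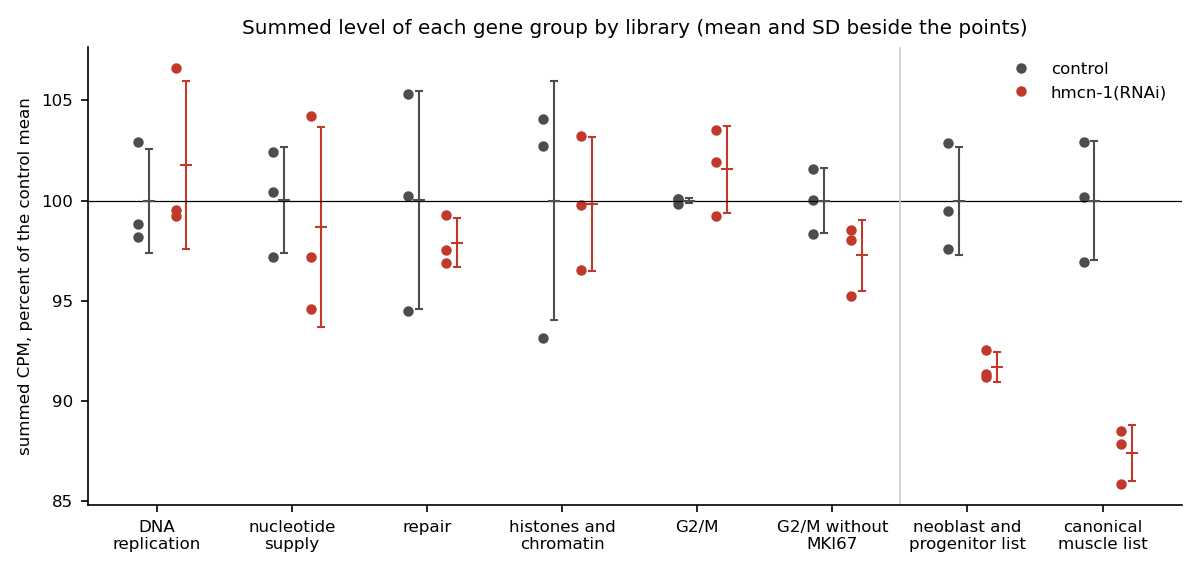
Summed CPM of each group of genes by library, as percent of the control mean of that group, with the mean and SD (n = 3) beside the points. The cell cycle groups lie around 100% in both conditions, whereas the neoblast and progenitor list and the canonical muscle list, shown for comparison on the right, lie at 91.7% and 87.4% in *hmcn-1(RNAi)* libraries.

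Of the 14 replication genes, 8 had a positive and 6 a negative log2 fold change, with a median of 0.01, and edgeR called none. None of the 14 had an unadjusted p under 0.05, and limma-voom and DESeq2 without independent filtering called none either. With independent filtering, DESeq2 gave an adjusted p only to MCM4 (0.947) and POLA1 (0.995) of the 14. MCM5, a subunit of the replicative helicase, lay at 36.2, 38.3, and 36.0 CPM in control and 39.4, 36.0, and 38.5 CPM in *hmcn-1(RNAi)* libraries. Replicates 1 and 3 of *hmcn-1(RNAi)* lay above the controls and replicate 2 among them, and the log2 fold change was 0.04 (95% interval -0.11 to 0.20). MCM4, of the same helicase, was at 40.8 ± 2.62 CPM (SD, n = 3) and 42.6 ± 4.28 CPM (SD, n = 3). GINS2 and CDC45, which join that helicase when it fires, had log2 fold changes of 0.09 and -0.06 on 88 and 254 reads in all. CDC6, which loads the helicase at origins, lay at 4.83, 5.74, and 3.64 CPM in control and 4.21, 4.27, and 3.89 CPM in *hmcn-1(RNAi)* libraries. All 3 *hmcn-1(RNAi)* values thus fell inside the range of the controls.

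PCNA, the sliding clamp that holds DNA polymerases on their template and a standard proliferation marker, lay at 16.9, 16.1, and 10.7 CPM in control and 14.6, 13.2, and 15.7 CPM in *hmcn-1(RNAi)* libraries. Control replicate 3 was the lowest library of all, and both means were 14.5 CPM. The log2 fold change of 0.01 had a 95% interval from -0.27 to 0.30. FEN1, the nuclease that trims Okazaki fragments, was at 22.6 ± 2.45 CPM (SD, n = 3) and 24.1 ± 3.26 CPM (SD, n = 3). POLA1, the catalytic subunit of the polymerase that starts new strands, was at 39.6 ± 1.08 CPM (SD, n = 3) and 39.2 ± 1.64 CPM (SD, n = 3), with a log2 fold change of -0.0057 (95% interval -0.15 to 0.14). Its primase partner PRIM1 lay at 3.54, 5.74, and 6.67 CPM in control and 6.199, 5.57, and 6.85 CPM in *hmcn-1(RNAi)* libraries. Control replicate 1 was the lowest library, and the log2 fold change of PRIM1 was 0.20 with and 0.01 without it.

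RPA2, a subunit of the complex that coats single-stranded DNA, lay at 14.01, 15.7, and 14.7 CPM in control and 16.3, 17.3, and 15.9 CPM in *hmcn-1(RNAi)* libraries. The *hmcn-1(RNAi)* libraries all lay above the controls, and the log2 fold change of 0.15 was not called (edgeR adjusted p = 0.683). TIPIN, which protects stalled forks, went the other way, with 4.51, 4.68, and 5.09 CPM in control and 3.98, 4.27, and 3.89 CPM in *hmcn-1(RNAi)* libraries. All *hmcn-1(RNAi)* libraries lay below the controls here, on 226 reads in all, and the log2 fold change of -0.24 was not called (edgeR adjusted p = 0.721). DTL, a substrate receptor of the ubiquitin ligase that clears licensing factors in S phase, lay at 6.76, 5.97, and 5.70 CPM in control and 4.91, 5.57, and 5.67 CPM in *hmcn-1(RNAi)* libraries. The conditions of DTL stood apart by 0.0329 CPM, with a log2 fold change of -0.17. DSCC1, of the complex that loads PCNA for cohesion, had the most negative value of all members, -0.33, on 108 reads. It lay at 2.58, 2.46, and 2.06 CPM in control and 1.75, 1.66, and 2.12 CPM in *hmcn-1(RNAi)* libraries, which overlapped. CLSPN, a checkpoint mediator, was at 15.2 ± 2.49 CPM (SD, n = 3) and 14.9 ± 2.51 CPM (SD, n = 3).

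Of the 3 genes of nucleotide supply, 1 had a positive and 2 a negative log2 fold change. RRM1, the large subunit of ribonucleotide reductase, was at 173 ± 5.08 CPM (SD, n = 3) and 179.5 ± 10.1 CPM (SD, n = 3), with a log2 fold change of 0.05. RRM2, the small subunit, whose transcript is tied to S phase in human cells, lay at 1.45, 1.99, and 2.30 CPM in control and 1.75, 1.78, and 1.35 CPM in *hmcn-1(RNAi)* libraries. These overlap, and with 91 reads in all the log2 fold change of -0.28 had a 95% interval from -0.93 to 0.36. TYMS, which makes thymidylate, lay at 110.2, 115, and 117 CPM in control and 105, 97.5, and 108 CPM in *hmcn-1(RNAi)* libraries. All *hmcn-1(RNAi)* libraries of TYMS lay below the controls. Its log2 fold change was -0.13 with a standard error of 0.0532, and it was not called (edgeR adjusted p = 0.296).

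None of the 5 repair genes was called by edgeR, limma-voom or DESeq2 without independent filtering, and none had an unadjusted p under 0.05 in edgeR. With independent filtering, DESeq2 gave an adjusted p to UNG (0.822) and BLM (0.998) but not to EXO1. The log2 fold change was -0.08 for UNG, which removes uracil from DNA, and -0.0010 for the helicase BLM. EXO1, a nuclease of mismatch repair and end resection, had the highest value of the group, 0.19. It lay at 7.09, 6.68, and 7.88 CPM in control and 8.89, 7.35, and 8.46 CPM in *hmcn-1(RNAi)* libraries, where replicate 2 fell within the control range.

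The 4 histone and chromatin genes were not called either by edgeR, limma-voom or DESeq2 without independent filtering. None had an unadjusted p under 0.05 in edgeR. With independent filtering, DESeq2 gave none of the 4 an adjusted p, so that setting could not call them. NASP, a histone chaperone, lay at 20.6, 20.03, and 21.5 CPM in control and 21.5, 22.5, and 21.9 CPM in *hmcn-1(RNAi)* libraries. The conditions of NASP did not overlap, by a margin of 0.0547 CPM, and its log2 fold change was 0.09 (95% interval -0.11 to 0.28). SLBP, which binds histone mRNA, had a log2 fold change of 0.08, and CHAF1B, of the complex that deposits new histones behind the fork, of 0.04. UBR7, a histone-binding ubiquitin ligase, had -0.14, with the control libraries spread from 22.6 to 30.0 CPM.

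Of the 13 G2 and M phase members, 12 were tested, 7 with a positive and 5 with a negative log2 fold change and a median of 0.02. MKI67, the human name of the chromosome surface protein that the Ki-67 antibody detects in dividing cells, was the member called. It lay at 52.7, 61.1, and 56.0 CPM in control and 73.0, 66.6, and 66.7 CPM in *hmcn-1(RNAi)* libraries, and all 3 *hmcn-1(RNAi)* libraries lay above all 3 controls. The means were 56.6 ± 4.26 CPM (SD, n = 3) and 68.8 ± 3.64 CPM (SD, n = 3), and the log2 fold change was 0.27 with a standard error of 0.0644 (edgeR adjusted p = 0.0227). The call was kept in 2 of the 6 fits with a library left out, over which the log2 fold change lay between 0.23 and 0.34. It was lost without control replicate 1 or 3 and without *hmcn-1(RNAi)* replicate 1 or 3, where the adjusted p lay between 0.0534 and 0.175 in edgeR and the log2 fold change between 0.23 and 0.30. DESeq2 gave MKI67 an adjusted p of 0.0772 with and 0.404 without independent filtering, at a log2 fold change of 0.28.

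The other members of mitosis did not move with MKI67 as a group. Without it, the G2 and M phase sum was 267, 259, and 263 CPM in control and 258, 251, and 259 CPM in *hmcn-1(RNAi)* libraries. SMC4, a condensin subunit that compacts mitotic chromosomes, lay at 92.6, 89.7, and 87.8 CPM in control and 79.7, 83.1, and 80.9 CPM in *hmcn-1(RNAi)* libraries. All *hmcn-1(RNAi)* libraries of SMC4 lay below the controls, and the log2 fold change of -0.15 (standard error 0.0546) was not called (edgeR adjusted p = 0.253). Over the leave-outs, that of SMC4 stayed between -0.17 and -0.13.

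AURKB and BIRC5 encode the kinase and the survivin subunit of the chromosomal passenger complex, which corrects attachments of chromosomes to the spindle. AURKB lay at 2.42, 2.34, and 3.15 CPM in control and 3.16, 2.25, and 2.20 CPM in *hmcn-1(RNAi)* libraries. BIRC5 lay at 1.29, 2.46, and 2.43 CPM and at 1.87, 2.37, and 2.37 CPM. Both overlapped between conditions, and on 133 and 113 reads their 95% intervals ran from -0.62 to 0.46 and from -0.53 to 0.66 on the log2 scale. The spindle checkpoint kinase TTK had a log2 fold change of 0.07 and the centrosomal kinase NEK2 of -0.21. CKS2, a small subunit of cyclin-dependent kinases, lay at 4.19, 4.33, and 3.03 CPM in control and 2.46, 4.03, and 2.88 CPM in *hmcn-1(RNAi)* libraries. Its log2 fold change of -0.31 came with overlapping libraries and 177 reads (edgeR adjusted p = 0.703). The cytokinesis genes KIF23, ECT2, and KIF20B had log2 fold changes of 0.02, 0.05, and -0.03. RANGAP1, which activates the GTPase of the Ran cycle, had 0.07, and LBR, the lamin B receptor of the nuclear envelope, 0.0095.

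CDC25C, the phosphatase that triggers entry into mitosis in human cells, was the member not tested. Its contig had 1 read in control replicate 3 and 0 reads in the other 5 libraries. A count of 0 allows up to 3 reads, or between 0.254 and 0.483 CPM at these depths, so no difference was detectable here.

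**Figure D3:**
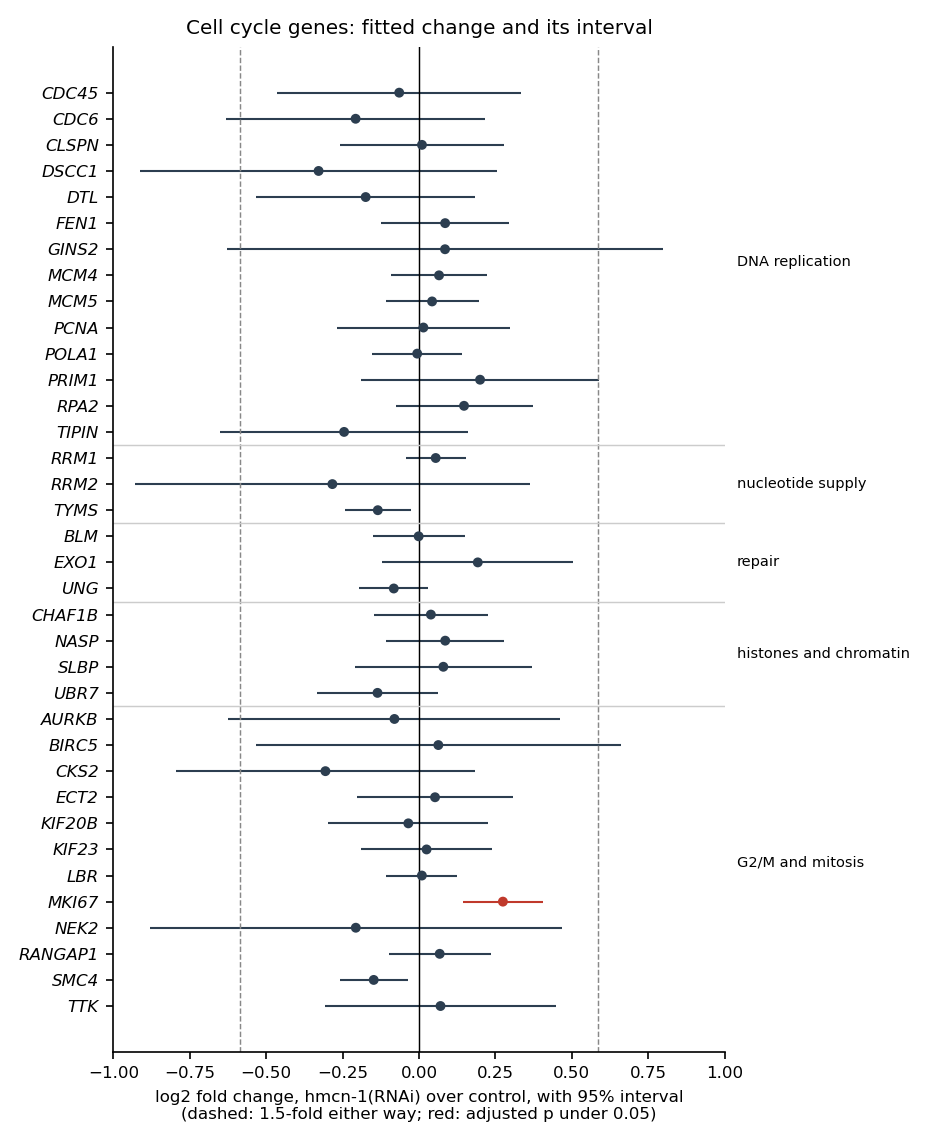
Log2 fold change of 36 tested cell cycle genes, *hmcn-1(RNAi)* over control, with the 95% interval of each from the edgeR fit, grouped by role. MKI67 (red) is the gene called, and the intervals of 26 of the 36 genes lie inside the dashed lines at 1.5-fold.

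The fit also bounds the changes that these libraries leave possible. The 95% interval lay within 1.5-fold in either direction for 28 of 38 members, close to the 74.9% of all contigs tested for which it did. These were all 22 members at a mean of 10 CPM or more and 6 of the 16 below it. The other 10 were CDC6, DSCC1, GINS2, PRIM1, TIPIN, RRM2, AURKB, BIRC5, CKS2, and NEK2. Within 1.2-fold lay the intervals of 13 members, and of 35.8% of all contigs, among them MCM5, POLA1, RRM1, BLM, and LBR. Standard errors of the members' log2 fold changes had a median of 0.087 at 10 CPM or more and 0.204 below, so a difference at the less abundant members had to be larger to be seen. The biological coefficient of variation had a median of 6.66% over the members and 6.41% over all contigs tested.

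**Figure D4:**
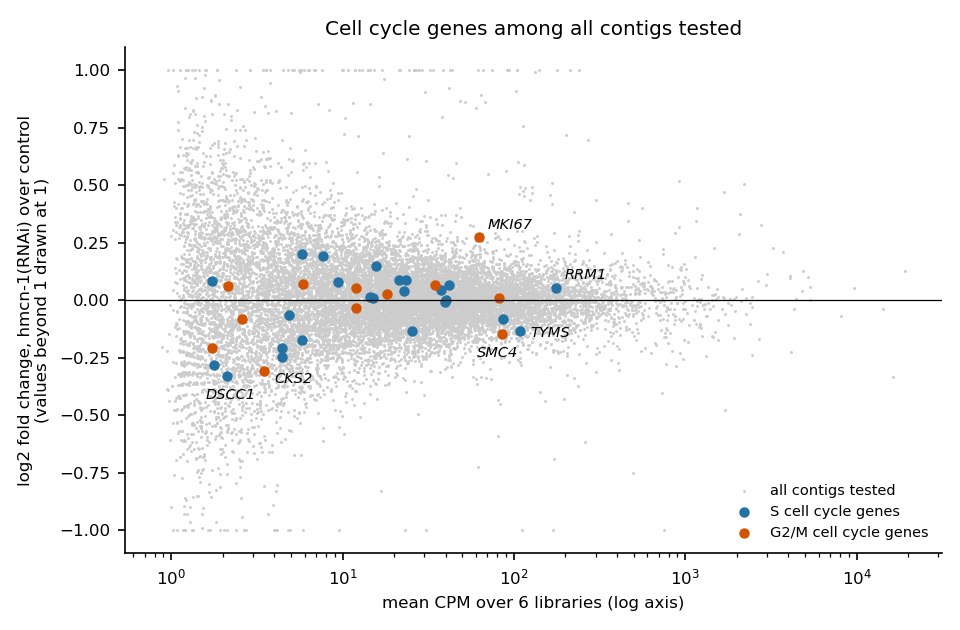
Log2 fold change of *hmcn-1(RNAi)* over control against mean CPM over the 6 libraries (log axis) for all 15333 contigs tested (grey), with 36 cell cycle genes of S phase (blue) and of G2 and M phase (orange) drawn over them. Contigs beyond 1 in either direction are drawn at 1. The cell cycle genes lie among the grey points, between -0.33 for DSCC1 and 0.27 for MKI67.

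The control and *hmcn-1(RNAi)* libraries did not overlap for 7 of the 38 members, or 18.4%, and for 15.6% of all contigs tested. Higher in *hmcn-1(RNAi)* tails were 3 members (MKI67, RPA2, and NASP), where 7.81% of all contigs were, and lower were 4 members (SMC4, TYMS, TIPIN, and DTL), where 7.78% of all contigs were. This share is near that of all contigs. Replication and mitosis had such members in both directions.

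Other genes of neoblasts and their progeny were read from the same fit, from a list of 11 contigs. It holds the probe genes of the γ-neoblast, ζ-neoblast and epidermal lineage pools and 4 contigs assigned to neoblasts in an earlier single-cell atlas. Of the 11, 10 had a negative and 1 a positive log2 fold change, with a median of -0.08, beside 50.0% of all contigs below 0. For 5 of the 11 (45.5%) the conditions did not overlap, all lower, where 7.78% of all contigs were. An unadjusted p under 0.05 in edgeR was reached by 4 (36.4%), against 11.0% of all contigs. The epidermal lineage gene *prog-2* was called lower, where 0.613% of all contigs were, with 1595, 1553, and 1513 CPM in control and 1406, 1437, and 1393 CPM in *hmcn-1(RNAi)* libraries. The log2 fold change of *prog-2*, which marks cells that have left the cycle, was -0.14 (edgeR adjusted p = 0.047). Its call was lost with any 1 of the 6 libraries left out, where edgeR gave adjusted p-values from 0.0794 to 0.244. The other epidermal lineage gene, *agat-3*, had -0.05 and was not called (edgeR adjusted p = 0.766). It lay at 118, 123, and 123 CPM in control and 119, 120, and 112 CPM in *hmcn-1(RNAi)* libraries, which overlapped. The γ-neoblast gene *gata4/5/6*, a transcription factor of the intestinal lineage, lay at 133, 127, and 132 CPM in control and 109, 126, and 108 CPM in *hmcn-1(RNAi)* libraries. That is a log2 fold change of -0.19, which was not called (edgeR adjusted p = 0.0788). It was called without *hmcn-1(RNAi)* replicate 2, with -0.27 (edgeR adjusted p = 0.00949), with no filter on low counts (edgeR adjusted p = 0.0346), and with the replicate number as a block (edgeR adjusted p = 0.0362). The ζ-neoblast transcription factors *zfp1* and *soxP-3* had -0.04 and -0.12, and the other γ-neoblast genes *hnf4* and *prox-1* had -0.07 and -0.02. Of the neoblast-assigned contigs, dd_592 had -0.33 and MFAP1 -0.20, the most negative values of the list. Neither was called (edgeR adjusted p = 0.355 and 0.103). HCFC1 had -0.08, and OGFOD1, at 0.14, was the positive one of the list.

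The summed level of the 11 genes lay between 2359 and 2487 CPM in control and between 2204 and 2237 CPM in *hmcn-1(RNAi)* libraries, a sum that *prog-2* dominates. Sums of the lists that do not hold *prog-2* did not overlap either, but abundant genes weigh most in each. The γ-neoblast genes lay at 445 to 491 CPM in control and 426.5 to 439 CPM in *hmcn-1(RNAi)* libraries. Their most abundant gene, *hnf4*, overlapped (306 to 346 and 288 to 319 CPM), as did *prox-1*, whereas *gata4/5/6* did not. The ζ-neoblast genes lay at 46.7 to 49.1 and 42.8 to 45.9 CPM, mostly from *soxP-3*, which did not overlap. The neoblast-assigned contigs lay at 223.5 to 234.4 and 210.7 to 214.4 CPM. Of these, HCFC1, the most abundant, and OGFOD1 overlapped, and MFAP1 and dd_592 did not. Beside *prog-2*, *agat-3* overlapped. In the same libraries, 4 of 7 canonical muscle genes were called lower, where 0.613% of all contigs were. Their summed level was between 8995 and 9550 CPM in control and between 7965 and 8213 CPM in *hmcn-1(RNAi)* libraries, and none was at 0. Of 4 neural genes, ChAT, the enzyme of acetylcholine synthesis, was called lower with a log2 fold change of -0.28 (edgeR adjusted p = 0.0223), a call kept in 2 of the 6 leave-outs, and their sum was between 216 and 228 CPM in control and between 202 and 206 CPM in *hmcn-1(RNAi)* libraries. The 5 genes of the parenchymal pool were not called by edgeR, 3 with a positive and 2 with a negative log2 fold change. Their sums overlapped, at 5329 to 5606 CPM in control and 5494 to 6484 CPM in *hmcn-1(RNAi)* libraries. The 2 genes of the cathepsin+ pool were not called by edgeR, both with an unadjusted p under 0.05. Their sum was between 60.3 and 71.5 CPM in control and between 74.2 and 81.5 CPM in *hmcn-1(RNAi)* libraries. The part of these differences in the values of the cell cycle genes was not tested. The sum over the cell cycle genes overlapped between conditions in these same libraries.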

How the data were processed

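The 6 libraries (3 control and 3 *hmcn-1(RNAi)*) were grouped by their titles. The authors trimmed reads with cutadapt 1.8 (per the processing notes), mapped them to dd_Smed_v6 using bowtie 1.2.2 with -best, joined isotigs with samtools 1.9, and deposited raw counts per contig. The sources used here do not say whether strand was used or how reads matching several contigs were placed, and related contigs may share reads. No other contig shares a number with any of the 39 members. A second deposited table with the authors' own DESeq2 comparison (means, fold changes, p-values) was not used. Contig lengths and sequences were not used here, so levels were not compared between genes.

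In R 4.3.3, edgeR 4.0.16 was run with filterByExpr (minimum count 10), TMM, and a robust quasi-likelihood fit over all 6 libraries with condition as the only term. The standard error is the log2 fold change divided by the square root of F, and 95% intervals use the t distribution. The fit was tested on simulated data. P-values measure the spread between pools of 5 tails, which may be partly technical, and intervals for a count of 0 cover counting error only. Alternatives were limma-voom (3.58.1), RLE scaling, a filter of 100 counts in 3 libraries or none, the replicate number as a block, DESeq2 1.42.0 (independent filtering on or off), and each library left out. Plots were drawn with Python 3.11.15 and matplotlib 3.10.9.

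Of the 39 members, 2 enter the counts, medians and sums but are not reported individually here. Members, lists and alternatives were chosen with earlier results of these data known. Values in every library are given for members called, the 5 highest and 5 lowest log2 fold changes, members whose conditions do not overlap, members not tested, and PCNA, MCM5, RRM2, MKI67, AURKB, and BIRC5.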

Additional observations from a re-analysis of the deposited data

How the results depend on the processing

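Of the 38 members tested, 22 kept their direction in each of the 13 alternatives that gave them a value (the filter of at least 100 counts kept 22 members), and no member became called in one. RLE scaling, no filter, the stricter filter, limma-voom and the replicate block each called 1 member, and leaving out a library gave 0 to 1. DESeq2 called 0 with and 0 without independent filtering (2 at an unadjusted p under 0.05 in both). With that filtering, only 9 members had an adjusted p, so the others could not be called there. Without it, 39 had one. Over all contigs tested, 173 were called, 339 with no filter, 112 and 66 by DESeq2 with and without independent filtering, 292 with the replicate block, and 75 to 255 with a library left out. Of the neoblast and progenitor list 1 was called, 2 with no filter, 0 with at least 100 counts, 0 by DESeq2 without independent filtering, 2 with the replicate block, and 0 to 1 with a library left out. The causes were not tested. Over all contigs tested, deviations of same-numbered libraries from their condition means had correlations of 0.0259, 0.0843, and 0.014. Those of differently numbered libraries lay between -0.0635 and 0.0434. Over the members, the same-numbered values were 0.0575, 0.353, and -0.26. These values do not settle whether the libraries were paired, and the numbers were not taken as pairs in the main fit. Control replicate 1 correlated best with *hmcn-1(RNAi)* replicate 3 (0.0434 over all contigs tested). With the block, MKI67 had a log2 fold change called at an adjusted p of 0.00506 (edgeR, Benjamini-Hochberg).

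Direction changed for GINS2 with limma-voom (-0.053), for BLM with no filter (0.0043) and the replicate block (0.0046), and for CLSPN with DESeq2 in both settings (-0.0061). With a library left out it changed for 16 members, and the log2 fold changes of 14 of them ranged as follows: PCNA -0.18 to 0.12, MCM4 -0.017 to 0.13, GINS2 -0.15 to 0.47, CDC45 -0.19 to 0.058, BLM -0.041 to 0.059, CLSPN -0.15 to 0.13, POLA1 -0.043 to 0.017, BIRC5 -0.14 to 0.20, AURKB -0.25 to 0.077, KIF20B -0.11 to 0.037, TTK -0.077 to 0.22, ECT2 -0.029 to 0.093, KIF23 -0.052 to 0.073, and LBR -0.0155 to 0.053. Of the neoblast and progenitor list it changed for *prox-1* (-0.086 to 0.021) and *zfp1* (-0.34 to 0.10). The median standard error of a log2 fold change was 0.204 over the 16 members below 10 CPM and 0.087 over the others.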

Other observations

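Single libraries differed in how often they held the extreme value of a cell cycle gene within their condition. Control replicate 1 was the lowest of the 3 control libraries for 17 of the 38 members tested, or 44.7%, and for 35.7% of all contigs tested. Among the 16 members below 10 CPM it was the lowest control library for 9. Replicate 2 was the highest of the 3 *hmcn-1(RNAi)* libraries for 16 members, or 42.1%, and the lowest for 15, or 39.5%, beside 34.7% and 34.3% of all contigs tested. Of single values, GINS2 lay at 0.93 CPM in *hmcn-1(RNAi)* replicate 3 and at 2.22 and 2.37 CPM in the other 2.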
